A study of Mus musculus with 87 samples.

Results

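Chemokines are small secreted proteins that guide leukocytes by binding G protein-coupled receptors. Cxcl9, Cxcl10 and Cxcl11 are the ligands of Cxcr3, the receptor of activated T cells and NK cells, and are classic targets of interferon-γ (IFN-γ), which signals through Jak kinases. Ccl2, Ccl7 and Ccl12 are monocyte chemoattractants that act on Ccr2, Ccl5 acts on several receptors of T cells and monocytes, and Cxcl16 is the ligand of Cxcr6. Cxcl12, the ligand of Cxcr4, is made constitutively in brain, and Cx3cl1 (fractalkine) is a membrane-bound neuronal chemokine whose receptor, Cx3cr1, marks microglia. These 10 chemokines, chosen by name, were read as 10 of the 48526 genes in the counts of sorted nuclei and 10 of the 48531 genes in the counts of single nuclei.

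The study asked how midbrain neurons and glia respond to IFN-γ placed directly in the tissue, and how long the response lasts. Wildtype C57BL/6J mice of both sexes, 6 to 12 months old, received 400 nL of saline, or the same volume of saline with 40 ng of IFN-γ, into the ventral midbrain on both sides. For bulk sequencing, nuclei were taken at 6, 24, 48 or 72 h and sorted by NeuN, the neuronal nuclear protein encoded by Rbfox3, into NeuN+ nuclei (neurons) and NeuN- nuclei (mainly glia), with 1 library per well. In each fraction 6 wells came from IFN-γ tissue at each time point, and 4, 6, 4 and 4 wells came from saline tissue at 6, 24, 48 and 72 h, which makes 84 wells. At 48 h, single nuclei were profiled from 1 saline mouse and 2 IFN-γ mice.

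The sample labels call all 84 wells NeuN+, and the fraction of each well came from the well list in the study's supplement. Rbfox3 had 0 to 9 counts in the 42 wells listed as NeuN- and 26 to 335 in the 42 listed as NeuN+, and Mbp, a myelin gene of oligodendrocytes, stood at 381.6 to 2006 against 32.65 to 153.5 on the counts-per-million (CPM) scale, each well's counts divided by its total. NeuN- wells held 20962 to 301445 counts (median 110200) and NeuN+ wells 277113 to 1684374 (median 1064000), so that 1 count was worth far more CPM in a NeuN- well. The wells of a treatment and time point came from 2 to 3 mice, and the sources used here do not tie wells to mice. All n below count wells, p-values measure the spread between wells only, and the smallest of the permutation p-values would be out of reach with mice as the unit. Xist, the X-inactivation transcript of female cells, had medians of 4374 and 5022 CPM in the NeuN- IFN-γ wells of 6 and 48 h and of 187.6 and 138.5 CPM in those of 24 and 72 h, so that time after injection and the mice used cannot be told apart. At 24 h its median was also higher after saline, at 2443 CPM (123.4 to 3618) in NeuN- wells and 800.5 CPM (20.99 to 1177) in NeuN+ wells, where NeuN+ IFN-γ wells had 50.2 CPM, so that treatment and mice cannot be told apart at 24 h either. In sorted bulk nuclei, fewer cells of a type and less RNA per cell cannot be told apart either.

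The induced chemokines lie in 2 clusters (coordinates in GRCm38). On chromosome 5, on the minus strand, Cxcl9 (chr5:92321347-92328079), Cxcl10 (chr5:92346638-92348889) and Cxcl11 (chr5:92359544-92365485) stand within 44.1 kb that wholly contain 0 other coding genes. On chromosome 11, on the plus strand, Ccl2 (chr11:82035571-82037453), Ccl7 (chr11:82045712-82047525) and Ccl12 (chr11:82101845-82103400) share 67.8 kb with Ccl11. Cxcl10 and Cxcl11 overlap Art3 on the other strand, Ccl2 overlaps Gm17268 and Cxcl16 overlaps Zmynd15. Whether the counting used strand is not given in the sources used here, and reads from such partners could not be told apart without it.

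Promoter sequence was at hand in RefSeq (GRCm38.p6) for 5 of the 10 chemokines. The 250 bases before the start of the 3 induced ones among them are shown, because each of these genes rose after IFN-γ in NeuN- nuclei at 6 h. Capitals mark matches to motifs known from interferon and inflammatory promoters, read 5′ to 3′ on the gene's own strand.
Cxcl10 (chr5:92348890-92349139, minus strand): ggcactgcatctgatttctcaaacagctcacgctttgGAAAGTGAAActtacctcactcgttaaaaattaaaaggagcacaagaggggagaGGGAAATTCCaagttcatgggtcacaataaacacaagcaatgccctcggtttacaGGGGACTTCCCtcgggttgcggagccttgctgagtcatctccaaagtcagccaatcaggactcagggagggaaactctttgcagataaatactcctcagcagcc
Cxcl9 (chr5:92328080-92328329, minus strand): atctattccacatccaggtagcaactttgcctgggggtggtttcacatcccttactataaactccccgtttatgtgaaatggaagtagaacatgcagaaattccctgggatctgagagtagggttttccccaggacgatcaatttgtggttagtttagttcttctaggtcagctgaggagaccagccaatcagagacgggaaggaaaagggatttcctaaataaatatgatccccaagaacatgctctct
Ccl12 (chr11:82101595-82101844, plus strand): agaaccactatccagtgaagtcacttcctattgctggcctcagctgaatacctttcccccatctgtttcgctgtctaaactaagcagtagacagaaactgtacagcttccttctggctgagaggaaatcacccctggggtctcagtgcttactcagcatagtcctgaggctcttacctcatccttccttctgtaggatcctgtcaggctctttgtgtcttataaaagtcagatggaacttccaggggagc
The Cxcl10 window held 1 interferon-stimulated response element (ISRE, searched as GAAANNGAAA), 213 to 204 bases before the start, and 3 matches to the NF-κB consensus, at 159 to 150, 104 to 95 and 103 to 94 bases, the last 2 overlapping. The Cxcl9 and Ccl12 windows held no match to these or to the γ-activated site (GAS, searched as TTCNNNGAA), which says only that these letters are not in these windows. Both strands were searched. Of 32851 promoter windows of the same length, 2.98% held the ISRE, 7.25% the NF-κB consensus and 7.02% the GAS.

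In NeuN- nuclei at 6 h Cxcl9, Cxcl10, Cxcl11, Ccl2 and Ccl12 rose after IFN-γ, 5 of the 10 chemokines, of which 8 had the 10 counts needed for the test (edgeR quasi-likelihood, called at a log2 fold change over 1 and a Benjamini-Hochberg adjusted p below 0.01 over all genes tested). Among all 9639 genes tested there, 3.41% were called higher.

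Cxcl10 reached 143, 148, 150, 158, 158 and 125 CPM in the 6 IFN-γ wells and 0, 0, 0 and 9.55 CPM in the 4 saline wells. The IFN-γ wells lay close together, at 147 ± 12.1 CPM (SD, n = 6), and every one was above every saline well. Its log2 fold change was 5.56 ± 0.62 (SE) with an adjusted p of 4.07e-17. With 1 saline count in all, the ratio of pooled CPM was 68.6, with a 95% counting interval of 12.05 to 2733, and without saline well 4, which held that count, the log2 fold change was 7.18.

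Cxcl9 stood at 143, 61.0, 121, 130, 83.5 and 203 CPM in the IFN-γ wells (3, 7, 25, 23, 9 and 21 counts) and at 0 in all 4 saline wells. It was at least 18.5-fold higher, taking 3 counts over the saline group as the floor, and its fitted log2 fold change was 6.86 ± 0.80 (adjusted p = 1.5e-15). Cxcl11, the third Cxcr3 ligand, gave 47.7, 69.7, 53.4, 130, 102 and 57.9 CPM against 0 in the 4 saline wells, at least 12.6-fold higher (6.31 ± 0.88, adjusted p = 8.14e-11). No IFN-γ well of either gene reached down to the saline wells.

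The Ccr2 ligands were less even. Ccl2 was at 47.7, 8.71, 43.7, 62.2, 55.7 and 48.2 CPM after IFN-γ and at 14.5, 0, 0 and 0 CPM after saline. One IFN-γ well, with 1 count, fell below the highest saline well, so the groups overlapped. The log2 fold change was 3.12 ± 0.74 (adjusted p = 0.00052) and the ratio of pooled CPM 10.4 (2.66 to 89.3). Without saline well 1, the one with Ccl2 counts, the log2 fold change was 5.43. Ccl12, a second Ccr2 ligand, spanned 22.6 to 191 CPM (median 61.6) in IFN-γ wells, above 14.5, 17.1, 0 and 0 CPM in saline wells, with a log2 fold change of 2.70 ± 0.59 (adjusted p = 0.000141).

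Ccl7 had 10 counts in 5 of the 6 IFN-γ wells and 0 in all 36 saline wells of both fractions. Its levels at 6 h were 47.7, 17.4, 19.4, 0, 18.6 and 9.65 CPM and its fitted change, 3.83 ± 1.35, missed the threshold (adjusted p = 0.0449). Cxcl16 was at 13.2 ± 10.6 CPM (SD, n = 6) against 6.34 ± 4.33 (n = 4), a difference of 1.12 ± 0.88 on the log2 scale (adjusted p = 0.52). Ccl5, at 9.05 ± 5.39 against 7.14 ± 9.47 CPM, gave 0.68 ± 0.94 (adjusted p = 0.757). For these 3 genes the wells of the groups overlapped or rested on at most 11 counts in a group, and a difference was not detectable at this depth.

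Markers of glia moved with IFN-γ in the same wells. The 8 microglial markers summed to 47.7 to 241 CPM in the 6 h IFN-γ wells and 439 to 625 CPM in the saline wells, and the 6 oligodendrocyte markers to 3816 to 4872 against 6921 to 7973 CPM, with 0 of the markers of either list at 0. Their part in the chemokine result was not tested. The 6 markers of T or NK cells had 0 counts in the IFN-γ wells, and the 6 of monocytes or border macrophages 10 counts, against 1 and 28 in the saline wells. Without wells of under 50000 counts, all 5 chemokines were still called.

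**Figure D1:**
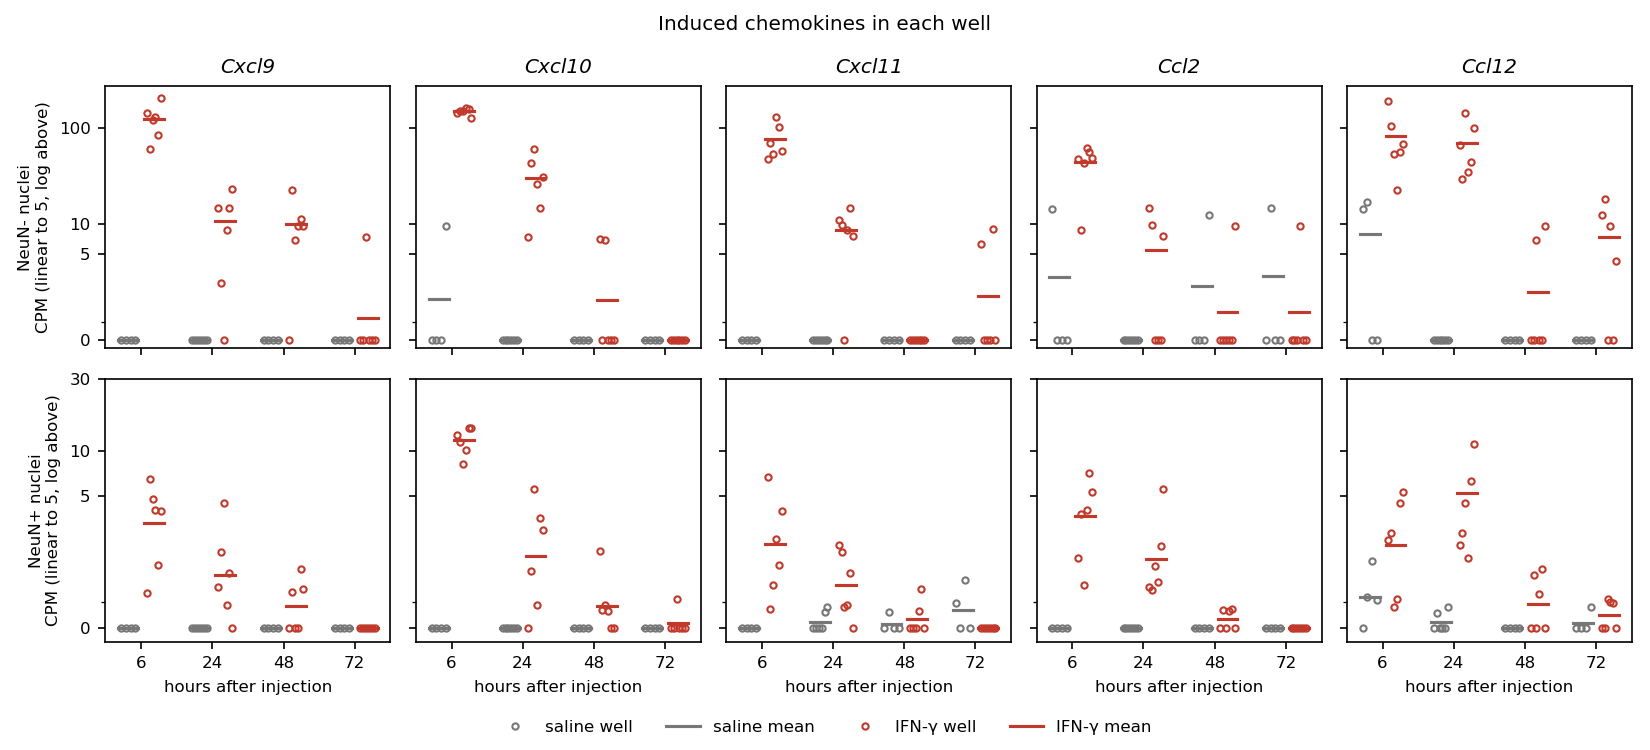
CPM of the induced chemokines in each well, by fraction, treatment and hours after injection; each point is 1 well and the line marks the group mean. In NeuN- nuclei at 6 h the Cxcl10 points of IFN-γ wells lie between 125 and 158 CPM and those of saline wells between 0 and 9.55 CPM.

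At 24 h in NeuN- nuclei 2 of the 10 chemokines were called higher, Cxcl10 and Ccl12, where 3.77% of 10486 genes were. Only 3 chemokines had the counts to be tested. Ccl12 was at 66.9, 29.9, 141, 34.8, 44.2 and 99.7 CPM after IFN-γ and at 0 in all 6 saline wells, at least 10.1-fold higher (log2 fold change 5.87 ± 0.93, adjusted p = 1.42e-08). Cxcl10 stood at 7.43, 43.1, 60.3, 26.1, 14.7 and 30.7 CPM against 0 in all 6 saline wells, at least 4.87-fold higher (4.80 ± 1.12, adjusted p = 0.000357). Cxcl9, at 0 to 23.0 CPM (median 11.7) against 0, was not called (3.52 ± 1.31, adjusted p = 0.0565). The exact two-sided permutation test of the mean log2(CPM + 1) gave 0.002165 for Cxcl10 and for Ccl12 (n = 6 and 6), the smallest p this design allows.

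The glial markers shifted at this time point too. Oligodendrocyte markers summed to 2347 to 2944 CPM in IFN-γ wells and 7044 to 8623 CPM in saline wells, and the 6 astrocyte markers to 1705 to 2267 against 557 to 1207 CPM, with 0 markers of either list at 0. Microglial markers were at 294 to 476 against 400 to 721 CPM, ranges that overlapped. The part of these shifts in the chemokine levels was not tested.

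At 48 and 72 h few counts of the induced chemokines were found in NeuN- wells, too few for the test. Cxcl12 was the only chemokine with enough counts for the test, and 0 of 10 were called (0.52% and 0.438% of all genes tested were higher). Cxcl9 still had 1 or 2 counts in 5 of the 6 IFN-γ wells at 48 h, 0 to 22.5 CPM with a median of 9.60, against 0 in the 4 saline wells, and 1 count in 1 of 6 wells at 72 h. Cxcl10 had 2 counts in all at 48 h and 0 at 72 h. Ccl12 was at 0 to 18.3 CPM at 72 h, with a count in 4 of 6 IFN-γ wells and in none of the 4 saline wells.

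In NeuN+ nuclei the same chemokines were detected at lower levels. At 6 h, 3 of the 10 were called higher, Cxcl9, Cxcl10 and Ccl2, where 0.81% of 16287 genes were, and 7 had counts for the test. Cxcl10 gave 12.6, 11.5, 8.13, 10.0, 14.2 and 14.1 CPM in IFN-γ wells and 0 in the 4 saline wells, at least 11.2-fold higher (6.54 ± 0.90, adjusted p = 6.17e-07). Ccl2 gave 2.66, 4.30, 1.63, 4.47, 7.11 and 5.29 CPM against 0 in 4 wells (5.03 ± 1.24, adjusted p = 0.00752), and Cxcl9 1.33, 6.46, 4.88, 4.47, 2.37 and 4.41 CPM against 0 (5.02 ± 1.25, adjusted p = 0.00817). Each of the last 2 was at least 3.81-fold higher. No IFN-γ well of these 3 genes overlapped a saline well.

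The calls for Cxcl9 and Ccl2 at 6 h in NeuN+ nuclei were fragile: leaving out 1 well in turn, any of the 4 saline wells or IFN-γ well 2, 4 or 6, left 1 call, Cxcl10. Cxcl11 was at 0.717 to 6.66 CPM (median 2.86) against 0 in the saline wells but was not called (4.74 ± 1.35, adjusted p = 0.0256). Ccl12 overlapped between the groups, at 3.15 ± 1.84 CPM (n = 6) against 1.19 ± 1.03 (n = 4), with 1.07 ± 0.73 on the log2 scale (adjusted p = 0.535).

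At 24 h, 4 of the 10 were called higher in NeuN+ nuclei, where 1.3% of 17319 genes were. Ccl12 rose, to 3.13, 3.61, 4.73, 2.64, 6.22 and 11.1 CPM against 0, 0.594, 0, 0, 0 and 0.802 CPM, with no overlap (3.71 ± 0.69, adjusted p = 0.000291, pooled ratio 17.5 with a counting interval of 4.402 to 151). Ccl2 was at 1.56, 1.44, 2.37, 1.76, 3.11 and 5.53 CPM against 0 in 6 saline wells, also with no overlap (4.49 ± 0.98, adjusted p = 0.00259). Cxcl10, at 0 to 5.52 CPM (median 2.93), and Cxcl9, at 0 to 4.73 CPM (median 1.82), each had 1 IFN-γ well at 0, the level of all 6 saline wells. Their log2 fold changes were 4.73 ± 1.02 (adjusted p = 0.00228) and 4.45 ± 1.02 (adjusted p = 0.00432). Without IFN-γ well 3 the calls were 2, Ccl2 and Ccl12.

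Markers of cell types moved in the NeuN+ wells as well. At 6 h oligodendrocyte markers summed to 156.9 to 209.5 CPM after IFN-γ and 288.4 to 402.8 CPM after saline, and the 3 VGLUT2 neuron markers to 1536 to 1684 against 1841 to 2045 CPM. At 24 h astrocyte markers summed to 279.8 to 306.7 against 100.3 to 225.4 CPM and the 3 GABA neuron markers to 107.4 to 160.5 against 205.7 to 323.2 CPM. None of these ranges overlapped, 0 markers of these lists were at 0, and their part in the chemokine levels was not tested.

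Later on NeuN+ nuclei gave no call for any chemokine, 0 of 10 at 48 h and 0 of 10 at 72 h. Of all genes tested 0.126% and 0.249% were higher. Only Cx3cl1 had the counts for the test at 48 h, and only Cx3cl1 and Cxcl12 at 72 h. The induced chemokines were not tested at either time, so the lack of a call says nothing of them. Counts of 1 to 3 per well remained at 48 h, Cxcl10 in 4 and Ccl12, Cxcl9 and Ccl2 in 3 of the 6 IFN-γ wells, each against 0 in the 4 saline wells. At 72 h Cxcl9, Cxcl11 and Ccl2 had 0 counts in all 6 IFN-γ wells.

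**Figure D2:**
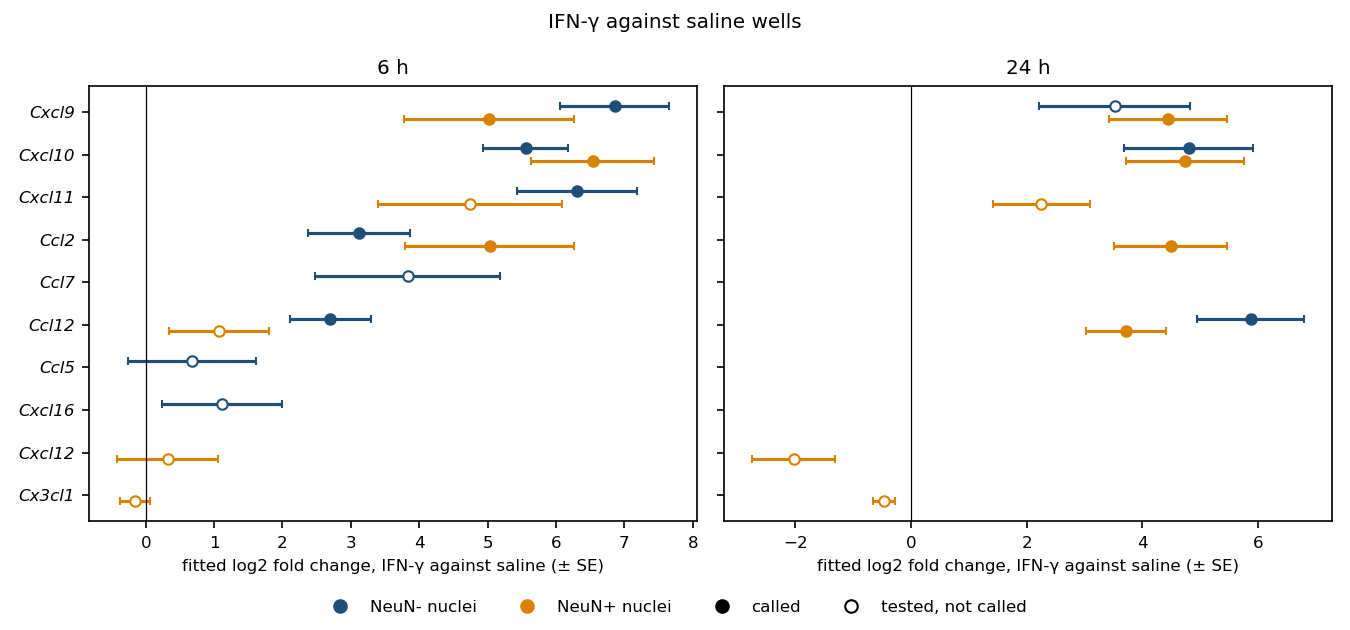
Log2 fold change of IFN-γ against saline with its standard error at 6 and 24 h, by fraction. Each chemokine that could be tested is shown, and filled points passed the threshold. The 5 called at 6 h in NeuN- nuclei lie between 2.70 and 6.86.

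The level after IFN-γ was set side by side between the fractions for the 5 chemokines called in NeuN- nuclei at 6 h. They were chosen by their height in those wells, so the values are a description with no test. At 6 h the 6 NeuN- wells of each lay above the 6 NeuN+ wells. The pooled NeuN+ level was 3.32% of the NeuN- level for Cxcl9, 4.0% for Cxcl11, 5.22% for Ccl12, 7.85% for Cxcl10 and 8.85% for Ccl2. At 24 h it was 8.16% for Ccl12 and 10.3% for Cxcl10, whose wells again did not overlap, 17.5% for Cxcl11, 22.0% for Cxcl9 and 27.5% for Ccl2.

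Glial markers in the NeuN+ wells gave a scale for these shares. At 6 h the summed NeuN+ level was 3.96% of the NeuN- level for oligodendrocyte markers, 13.8% for astrocyte, 14.4% for mural, 26.5% for endothelial and 60.2% for microglial markers, and at 24 h 11.04%, 16.0%, 8.83%, 13.6% and 29.3%. For monocyte or border macrophage markers it was 67.8% and 25.6%, and for oligodendrocyte precursor markers 101.9% and 105.1%. Microglial markers in NeuN- wells of 6 h had a median of 148 CPM after IFN-γ and 551 CPM after saline. In NeuN+ wells these medians were 94.2 and 86.4 CPM. Members of the microglial list differed: Csf1r had a median of 0 CPM in NeuN+ and 10.48 CPM in NeuN- IFN-γ wells at 6 h, and of 0.721 and 24.67 CPM at 24 h, so the summed share does not hold for each marker. The chemokine shares at 6 h lay between the oligodendrocyte share and the astrocyte share, or below both in the case of Cxcl9. At 24 h Ccl12 (8.16%) and Cxcl10 (10.3%) lay below both, and Cxcl11 (17.5%), Cxcl9 (22.0%) and Ccl2 (27.5%) above both. How much of the NeuN+ counts came from nuclei of other cells in that sort was not tested.

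Whether the fold change itself differed between fractions was tested as an interaction over all wells of a time point. Of the 10 chemokines 10, 7, 4 and 4 had the counts for it at 6, 24, 48 and 72 h, and 0 were called, where 0.799%, 1.76%, 0.064% and 0.211% of all genes were. The term could not be estimated for 3 of them at 6 h (Cxcl9, Cxcl11 and Ccl7) and 3 at 24 h (Cxcl9, Cxcl10 and Ccl2). The same held for 2 at 48 h (Cxcl9 and Ccl12). The saline groups of these were at 0 in both fractions, so the count says nothing of them. Further terms rested on an empty saline group in a single fraction. In NeuN+ nuclei these were Cxcl10, Ccl2 and Ccl5 at 6 h. In NeuN- nuclei they were Cxcl11 and Ccl12 at 24 h and Ccl12 at 72 h. An empty group leaves the fold change there without an upper limit, so the lack of a call does not show equal fold changes.

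**Figure D3:**
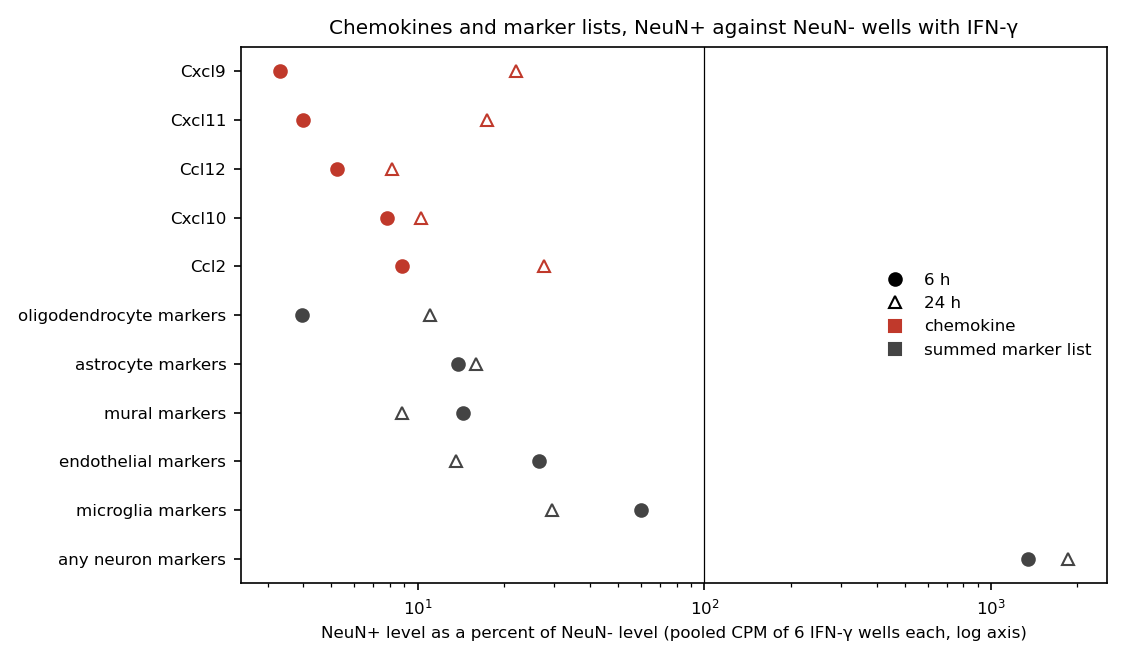
Pooled CPM in NeuN+ IFN-γ wells as a percent of that in NeuN- IFN-γ wells, at 6 and 24 h. The 5 induced chemokines and summed markers of glial, vascular and neuronal cells are shown. At 6 h the chemokines lie between 3.32% and 8.85% and the microglial markers at 60.2%. The NeuN- level of the microglial markers was itself lower after IFN-γ than after saline at 6 h.

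The decline between time points was fitted over the 24 IFN-γ wells of a fraction. In NeuN- nuclei 4 of 10 chemokines fell from 6 to 24 h, where 1.41% of genes did: Cxcl9 fell by 3.41 ± 0.41 on the log2 scale (adjusted p = 2.29e-14), Cxcl11 by 3.01 ± 0.46 (7.58e-09), Cxcl10 by 2.42 ± 0.32 (1.25e-11) and Ccl2 by 2.33 ± 0.55 (0.000591). Ccl12 was the exception, with a change of -0.10 ± 0.34 (adjusted p = 0.926). From 24 to 72 h Cxcl10 (-4.86 ± 0.93, adjusted p = 5.5e-06) and Ccl12 (-2.76 ± 0.51, adjusted p = 2.79e-06) fell, 2 of 10 beside 2.09% of genes, and Cxcl9 did not pass (adjusted p = 0.0995).

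In NeuN+ nuclei most of the declines were called after 24 h. From 6 to 24 h 1 of 10 fell, Cxcl10 (-1.99 ± 0.37, adjusted p = 8.89e-05), beside 0.33% of genes, and Ccl12 had an estimate of 0.59 ± 0.45 that did not pass. From 24 to 72 h 4 of 10 fell beside 1.05% of genes: Ccl2 (-4.47 ± 0.95, adjusted p = 0.000742), Cxcl9 (-4.44 ± 1.03, 0.00224), Cxcl10 (-3.55 ± 0.82, 0.00198) and Ccl12 (-3.19 ± 0.66, 0.000452). Without IFN-γ well 3 of 24 h neither Cxcl9 nor Cxcl10 passed, and without well 3 of 72 h Cxcl10 was at -4.74. Cxcl11, with an adjusted p of 0.0116, missed the threshold. The Xist difference given above applies to the contrasts of 24 with 6 h. Between the IFN-γ wells of 24 and 72 h Xist medians were closer, at 187.6 and 138.5 CPM in NeuN- nuclei. In NeuN+ nuclei they were 50.2 and 48.43 CPM. The time points were still different mice.

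Cx3cl1 counts came mainly from NeuN+ nuclei. It was present in all 42 NeuN+ wells, at 11.8 to 37.5 CPM, and had 0, 1 or 2 counts in NeuN- wells. In saline wells it was higher in NeuN+ nuclei by 3.19 ± 0.38 on the log2 scale (adjusted p = 3.7e-12). After IFN-γ it was at 20.2 ± 3.57 CPM (SD, n = 6) against 21.9 ± 2.70 (n = 4) at 6 h, 17.9 ± 5.38 (n = 6) against 25.8 ± 4.07 (n = 6) at 24 h, 17.7 ± 2.65 against 24.2 ± 9.90 at 48 h and 15.4 ± 1.96 against 20.8 ± 5.60 at 72 h. The IFN-γ mean was the lower at every time point, and the wells overlapped at each.

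None of these Cx3cl1 differences passed edgeR's threshold: the log2 fold changes were -0.16 ± 0.22, -0.47 ± 0.19, -0.52 ± 0.24 and -0.47 ± 0.21 with adjusted p of 0.822, 0.151, 0.444 and 0.253. The exact permutation test gave p = 0.02165 at 24 h and p = 0.0381 at 72 h, which became 0.0912 and 0.145 over the 80 tests of this kind. The pooled ratios were 0.913, 0.709, 0.659 and 0.738, with counting intervals of 0.673 to 1.25, 0.554 to 0.902, 0.501 to 0.869 and 0.551 to 0.991.

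Cxcl12 lay nearer its detection limit. In saline wells its pooled level was 7.95 CPM in NeuN- and 1.76 CPM in NeuN+ nuclei, a difference of -1.78 ± 0.49 (NeuN+ minus NeuN-) on the log2 scale (adjusted p = 0.00136). Of the 16 NeuN- saline counts 5 came from 1 well of 6 h, and without that well 1 chemokine, Cx3cl1, was called. With NeuN+ counts thinned to NeuN- depth the difference was not called. Over all saline wells 4 chemokines could be tested between fractions and 2 were called, Cx3cl1 and Cxcl12, beside 29.6% of 18772 genes; Cxcl16 was at -1.94 ± 0.66 (adjusted p = 0.013), and passed with RLE factors or DESeq2, and Ccl12 at -1.29 ± 0.69 (adjusted p = 0.141). The median of all genes was 0.40 in that contrast with TMM factors, 0.21 with RLE factors and -0.13 in DESeq2, and calls split into 3740 higher and 1822 lower, 3096 and 2128, and 2733 and 2305.

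In NeuN+ nuclei at 24 h Cxcl12 was at 0, 1.44, 0.789, 0, 0 and 0 CPM after IFN-γ and at 2.51, 2.38, 3.89, 2.05, 2.998 and 0.802 CPM after saline. The highest IFN-γ well passed the lowest saline well. The fold change, -2.03 ± 0.72, missed the threshold (adjusted p = 0.089), the exact permutation p was 0.00433 (0.0586 over 80 tests), and the pooled ratio was 0.208 with a counting interval of 0.0392 to 0.712. At 6 h the estimate was 0.32 ± 0.74 (adjusted p = 0.903) and at 72 h 0.05 ± 0.86 (0.987), and in NeuN- nuclei -0.22 ± 0.84 (0.987) at 48 h and 1.15 ± 1.05 (0.852) at 72 h. The sign of the estimates at 6 h, at 72 h in NeuN+ and at 48 h in NeuN- nuclei turned when 1 well was left out.

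Cxcl16, Ccl5 and Ccl7 stayed low in the wells throughout. In NeuN+ nuclei Cxcl16 had 0 to 3 counts in any well, Ccl5 0 or 1 and Ccl7 0 to 4. In NeuN- nuclei outside 6 h they had at most 3 counts, the highest being Cxcl16 at 27.4 CPM in 1 IFN-γ well of 72 h. All 10 chemokines in both fractions and 4 time points made 80 exact permutation tests, of which 23 had p below 0.05 and 4 an adjusted p below 0.05 (0.0433 each): Cxcl10 in NeuN- nuclei, Ccl2 in NeuN+ nuclei and Ccl12 in both, all at 24 h. With every saline well of the fraction as control 31 had p below 0.05 and 27 an adjusted p below 0.05. With 6 against 4 wells the smallest p was 0.009524, and with 6 against 6 it was 0.002165.

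**Figure D4:**
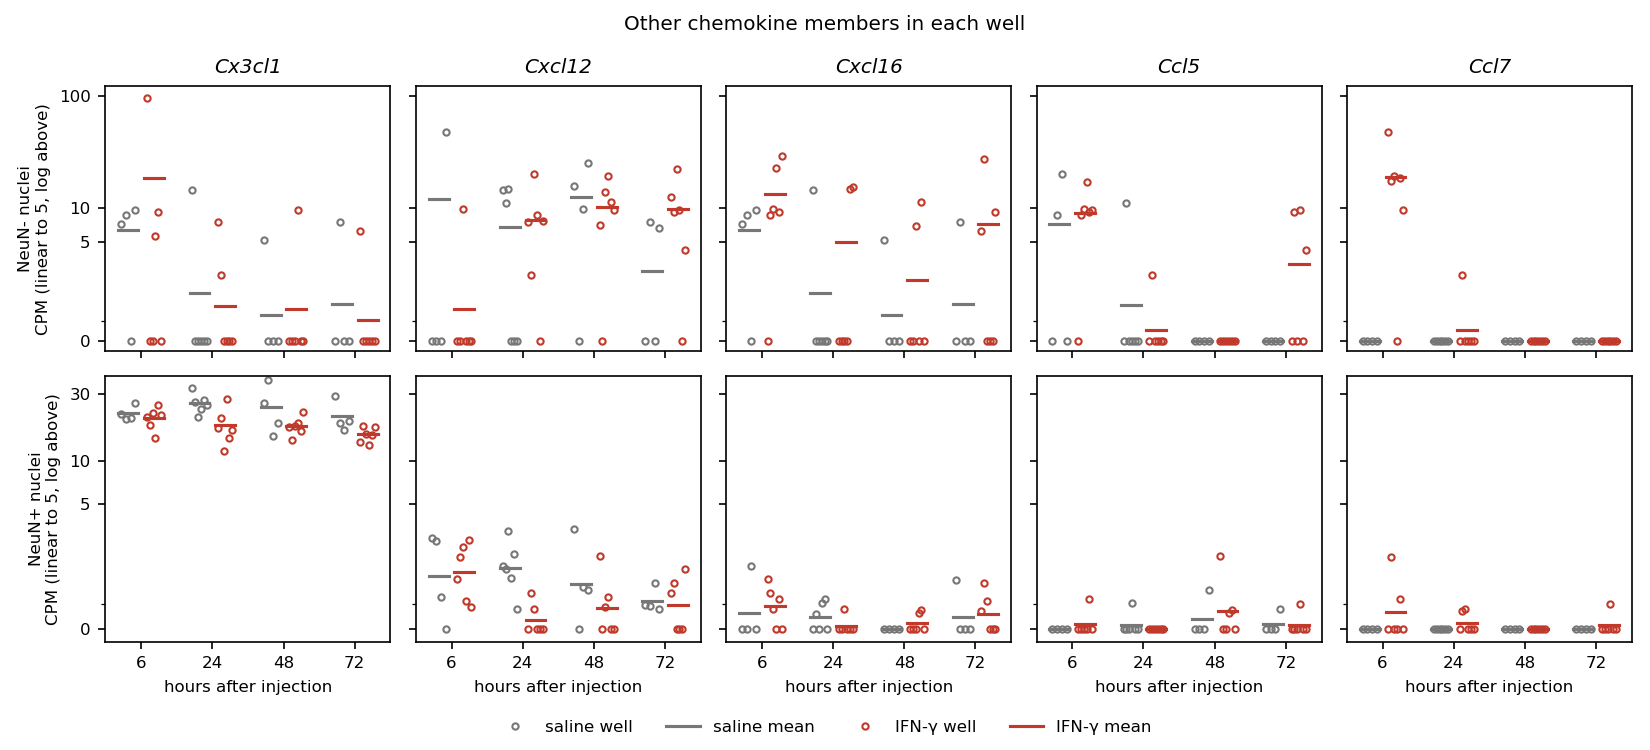
CPM of the remaining chemokines in each well, by fraction, treatment and hours after injection; each point is 1 well and the line marks the group mean. Cx3cl1 lies between 11.8 and 37.5 CPM in all 42 NeuN+ wells, with IFN-γ and saline points overlapping.

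Little of the wider chemokine system had the counts to be tested in these wells. Of 28 other chemokines, 23 chemokine receptors and 5 proteases that shed or trim chemokines, 0 were called in any of the 8 comparisons with saline; 1 to 5, 2 to 7 and 2 to 4 of them could be tested in a comparison, and nothing is known of the rest. Of 12 genes of IFN-γ and NF-κB signalling, 5 were called higher in at least 1 comparison, among them Irf1, Jak2, Socs1 and Socs3. The share of all genes called in at least 1 comparison was not counted. In NeuN- nuclei 4 of 11, 2 of 11, 1 of 7 and 1 of 9 tested were higher at 6, 24, 48 and 72 h. Of all genes 3.41%, 3.77%, 0.52% and 0.438% were. In NeuN+ nuclei 2 of 11, 4 of 11, 0 of 9 and 0 of 9 were higher. Of all genes 0.81%, 1.3%, 0.126% and 0.249% were. In NeuN- nuclei the 11 tested had a median log2 fold change of 0.70 after 6 h and 0.90 after 24 h, beside 0.00 and 0.05 over all genes.

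Irf1, the interferon-induced transcription factor, was at 390 ± 51.6 CPM (SD, n = 6) in NeuN- nuclei at 6 h against 2.50 ± 5.00 (n = 4), a log2 fold change of 6.94 ± 0.48 with an edgeR adjusted p of 9.45e-45. Socs1, a feedback inhibitor of Jak kinases, was at 26.7 ± 13.8 CPM against 0 in the 4 saline wells at 6 h (4.96 ± 1.13, adjusted p = 0.000307).

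The genes whose levels ran most like each chemokine over the 42 wells of a fraction are given as a description, since all points share libraries, depth and treatment. In NeuN- nuclei Cxcl10 ran most like Arap2 and Rnf213 (Pearson r of 0.91 each) and Grik2 (0.90), Cxcl9 like Grik2 (0.88), Rapgef6 and Rtkn2 (0.85 each), Cxcl11 like Jak2 (0.91), Arap2 (0.89) and Gab2 (0.88), and Ccl12 like Rnf213 (0.87), Ascc3 and Fndc3a (0.85 each). Grik2, Arap2 and Rnf213 were each among the nearest 3 of a pair of chemokines. In NeuN+ nuclei Cxcl10 ran most like Usp18, Samhd1 and Stat3 (0.84 each), and Ccl12 like Gm12250, Ifi44 and Gm16340 (0.83 each). Cx3cl1 had weaker neighbours, Fam20c (0.62), Kalrn (0.61) and Prkag2 (0.58), as had Cxcl12, with Lpp (0.57), 4732491K20Rik and Pvalb (0.56 each).

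Single nuclei at 48 h placed the late chemokine counts in cell classes. Of 4699 nuclei, 1016 came from the saline mouse and 2574 and 1109 from the IFN-γ mice, with median counts of unique molecular identifiers (UMIs) of 14645.5, 9404.5 and 11767 per nucleus and 0 barcodes shared between libraries. They were clustered anew and named by markers; 3 of 24 clusters, with 688 nuclei, stayed unnamed. The microglia-like cluster held 31, 49 and 54 nuclei of the saline mouse and IFN-γ mice 1 and 2, with median UMIs of 2801, 3800 and 3909, and all 8 microglial markers were found in each mouse. Tests between mice rest on 1 saline mouse, whose spread is assumed to be that of the IFN-γ mice.

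In microglia-like nuclei Cxcl9 had 0 UMIs in the saline mouse and 7 and 56 in the IFN-γ mice, which is 35.7 and 241 CPM of the summed UMIs of the class, in 12.2% and 29.6% of nuclei. The 0 of 31 saline nuclei allow a share of nuclei with a UMI of up to 9.68% (3 of 31), which limits detection and not expression. Cxcl10 had 0, 11 and 47 UMIs (56.2 and 202 CPM in the IFN-γ mice), but 43 of the 47 lay in 1 nucleus, as did 32 of the 56 of Cxcl9. Both were called higher (log2 fold change over 3, adjusted p below 0.01): Cxcl9 7.60 ± 1.89 (edgeR adjusted p = 0.00819) and Cxcl10 7.49 ± 1.85 (adjusted p = 0.00763), 2 of 10 chemokines beside 0.821% of 7795 genes. Neither was called with RLE factors or in DESeq2. Neither was called without the nuclei richest in these UMIs (which left 5 and 24 UMIs of Cxcl9 and 7 and 4 of Cxcl10). The same held without nuclei that held a Ccr2 UMI. In DESeq2 hardly any gene of any kind was called, and without the Ccr2 nuclei none was. Without the Ccr2 nuclei Cxcl9 was still at 37.6 and 313.9 CPM in the IFN-γ mice. Cxcl10 was at 50.2 and 263.5 CPM, and both were at 0 in the saline mouse.

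Other chemokines were seen in the same nuclei without passing the test. Cxcl16 had 0, 16 and 27 UMIs, in 11 and 17 nuclei of the IFN-γ mice (81.7 and 116 CPM, 7.10 ± 1.90, adjusted p = 0.0174). Ccl12 had 2, 17 and 35 UMIs (23.8, 86.8 and 151 CPM, 2.28 ± 0.86, adjusted p = 0.148), Ccl5 had 0, 4 and 13, and Ccl2 0, 3 and 2. Cxcl11 and Ccl7 had 1 UMI each over the IFN-γ mice, and Cx3cl1 likewise 1. Cxcl9 and Cxcl10 were found together in 1 nucleus of IFN-γ mouse 1, of 6 and 5 nuclei with either, and in 2 of IFN-γ mouse 2, of 16 and 4.

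The makeup of this cluster differed between the mice. Ccr2, the receptor of monocytes, had 0, 44 and 81 UMIs in 0, 10 and 15 nuclei, and Mrc1, a marker of border macrophages, 35, 0 and 8, while all 6 T or NK cell markers were at 0 in each mouse; T cell clusters were excluded by the authors before deposit. Nuclei with no Ccr2 UMI, 39 in each IFN-γ mouse, held 6 of 7 Cxcl9 and 8 of 11 Cxcl10 UMIs in IFN-γ mouse 1, and 159449 of the 195883 UMIs of all genes. In IFN-γ mouse 2 they held 56 of 56 and 47 of 47, and 178376 of 232343 UMIs of all genes, with most of the 56 and of the 47 in single nuclei as given above. Cxcl16 was at 164.7 and 148.2 CPM in the nuclei with Ccr2 (6 and 8 UMIs in 4 and 6 nuclei). In those without it was at 62.7 and 106.5 CPM (10 and 19 UMIs), and with so few UMIs the difference was not tested. The microglial marker P2ry12 was at 82.3 and 240.9 CPM with Ccr2 and at 1091 and 740 CPM without, and Siglech at 0 and 92.7 against 696.1 and 493.3 CPM, so that the nuclei with Ccr2 were low in both.

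Outside microglia-like nuclei the induced chemokines were sparse. The sort was enriched for NeuN+ nuclei, which sets how many nuclei each class has and so the shares of UMIs that follow. Microglia-like nuclei held 38.9% and 55.4% of all Cxcl9 UMIs of the IFN-γ mice, 40.7% and 92.2% of Cxcl10, 61.5% and 71.1% of Cxcl16 and 89.5% and 85.4% of Ccl12. Astrocyte-like nuclei (21, 135 and 37) had 0, 5 and 17 UMIs of Cxcl9 and 0, 13 and 0 of Cxcl10, 11 of the 13 and 13 of the 17 in 1 nucleus each; Cxcl9 there was at 6.27 ± 2.68 (adjusted p = 0.601), and 0 of 10 chemokines were called beside 0.0844% of genes. Oligodendrocyte-like nuclei were the class compared with, though they responded to IFN-γ themselves (Irf1 log2 fold change 9.56). Whether their Cxcl9 UMIs were background was not tested. Cxcl9 there had 8 UMIs in 2.61% of 306 nuclei of IFN-γ mouse 2 (median 4201.5 UMIs per nucleus). The microglia-like share of 29.6% in that mouse was above this. The astrocyte-like share of 13.5% had an interval of 4.54% to 28.8% that met the oligodendrocyte-like interval of 1.14% to 5.09%. The VGLUT2-like share of 3.33% and GABA-like share of 2.25% were near 2.61%, at 17135.5 and 18460 median UMIs. In IFN-γ mouse 1 the oligodendrocyte-like share was 0.134% (0.00340% to 0.747%). The microglia-like share was 12.2% (4.63% to 24.8%) and the astrocyte-like share 2.96% (0.813% to 7.41%), and neither met the oligodendrocyte-like interval. These intervals count nuclei within 1 mouse and leave out the spread between mice. In 4 classes, oligodendrocyte-like, VGLUT2-like, GABA-like and dopamine-like, 0 chemokines were called, beside 0.633%, 0.0435%, 0.0551% and 0.044% of genes; 2 of the oligodendrocyte-like clusters held no saline nuclei.

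Cx3cl1 marked neuron-like nuclei of every kind. It had 198, 553 and 213 UMIs in VGLUT2-like nuclei (47.7, 58.3 and 43.2 CPM in the saline mouse and IFN-γ mice 1 and 2), 270, 338 and 274 in GABA-like nuclei (48.2, 50.9 and 48.0) and 130, 87 and 78 in dopamine-like nuclei (32.5, 31.8 and 35.0). The IFN-γ mice stood on either side of the saline mouse or close to it, with log2 fold changes of 0.09 ± 0.21, 0.03 ± 0.17 and 0.03 ± 0.24. A UMI of Cx3cl1 was found in 39.2% to 59.6% of nuclei of these 3 classes and in 0.654% to 2.28% of oligodendrocyte-like nuclei. Dopamine-like nuclei had the lowest level of the 3 classes in each mouse. In the saline mouse 95% counting intervals of 27.2 to 38.6 CPM for dopamine-like and 42.6 to 54.3 CPM for GABA-like nuclei did not meet. The dopamine-like interval met neither other class in IFN-γ mouse 1 and both in IFN-γ mouse 2. These intervals count UMIs within 1 mouse and leave out the spread between mice.

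Ccl5 and Cxcl12 had thin counts elsewhere. Ccl5 had 13, 15 and 25 UMIs in GABA-like nuclei (2.32, 2.26 and 4.38 CPM) and 5, 22 and 18 in VGLUT2-like nuclei (1.20, 2.32 and 3.65 CPM), present without IFN-γ. Cxcl12 had 10, 7 and 2 UMIs in the unnamed nuclei and 0 in microglia-like nuclei of every mouse.

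**Figure D5:**
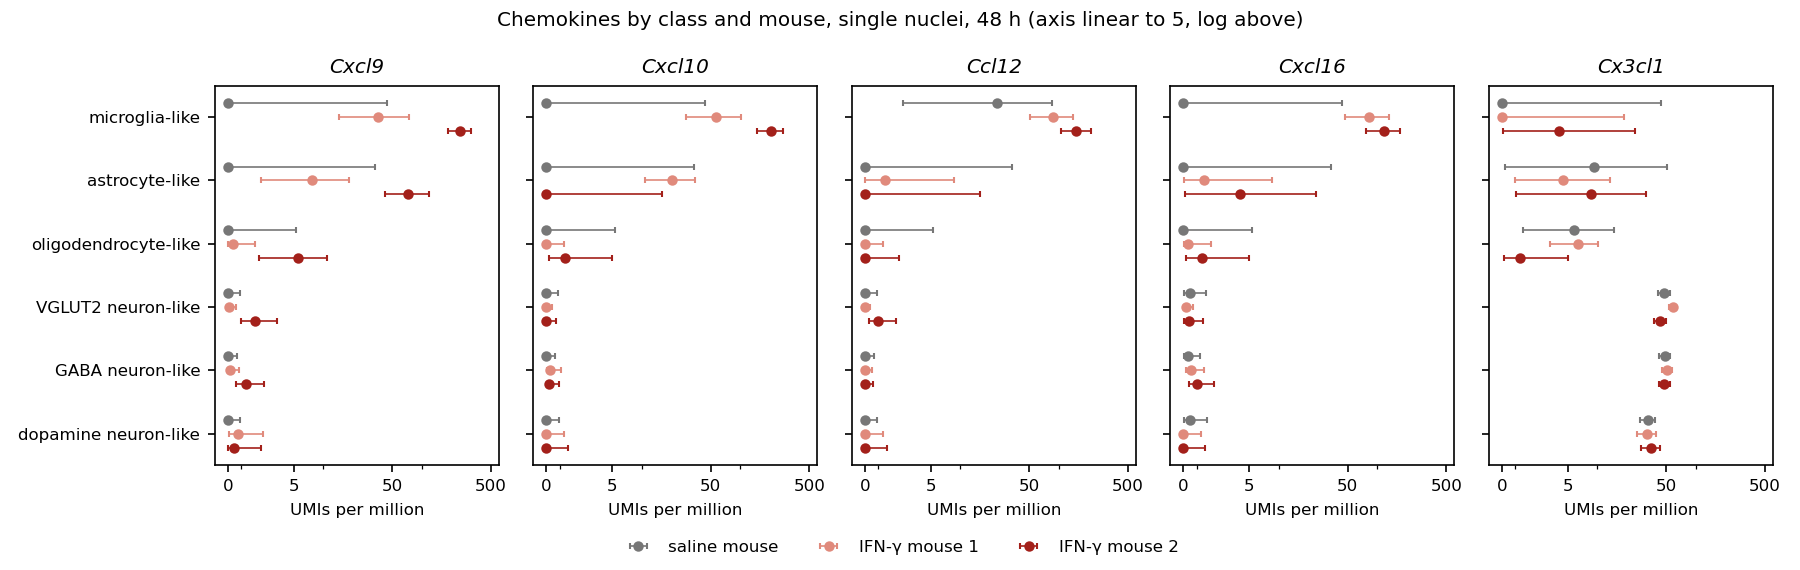
CPM of the chemokines (share of the summed UMIs) in each class of single nuclei at 48 h, with 1 point per mouse. Cxcl9 in microglia-like nuclei stands at 35.7 and 241 CPM in the IFN-γ mice and at 0 in the saline mouse, and Cx3cl1 between 31.8 and 58.3 CPM in VGLUT2-like, GABA-like and dopamine-like nuclei.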

How the data were processed

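The authors deposited raw counts, 1 table for sorted bulk nuclei and 1 for single nuclei. They aligned poly(A)-trimmed reads to GRCm38 with STAR and a Gencode annotation, and collapsed reads of 1 well or nucleus, UMI and gene to 1 count. Intronic reads were kept for single nuclei; whether they were for the wells is not given in the sources used here. Before deposit the authors removed doublets, rare cell types such as mural and T cells, and mixed neuronal clusters, so no doublet caller was run here. Versions of STAR are not given in the sources used here.

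Wells were grouped by treatment and time from the labels and by fraction from the study's supplement, since the labels name 1 fraction only. Comparisons used edgeR 4.0.16 in R 4.3.3 (TMM factors, quasi-likelihood test, genes with at least 10 counts over the wells compared), called at an absolute log2 fold change over 1 and an adjusted p below 0.01. Levels are CPM of each well's total. Exact two-sided permutation tests on log2(CPM + 1) used scipy 1.17.1. Standard errors are those of the log2 fold change.

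Nuclei were clustered with scanpy 1.11.5 (2000 variable genes, 30 components, 15 neighbours, Leiden resolution 1), named by marker lists, and their UMIs summed per mouse and class. There a call needed a log2 fold change over 3, an adjusted p below 0.01 and both IFN-γ mice beyond 3. The scripts were tested on simulated data. Intervals are exact at 95% and, like the 3-count floors, cover counting error only; depth is 20962 to 1684374 counts per well.

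Named genes were all 10 chemokines, up to 3 called genes per further list and direction with the largest change, and the 3 genes with the highest correlation to each chemokine of at least 50 counts, among genes of at least 100 counts. The members and lists were chosen with earlier results of these data known. Some genes of the lists are not reported here. Promoter windows of 250 bases came from RefSeq, and gene positions from a GRCm38 annotation. Alternatives were RLE factors, DESeq2 1.42.0, other count filters, all saline wells as controls, thinned counts, leaving out each well, and, chosen after the data were seen, leaving out wells under 50000 counts or certain nuclei.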

Additional observations from a re-analysis of the deposited data

Results flagged for a closer look

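Ccl2 in the 6 h IFN-γ wells of NeuN- nuclei had 1 well far from the others: well 2 was at 8.71 CPM (1 count), the next lowest well was at 43.7 CPM, and the gap was 0.654 of the range of the 6 wells. This was 1 of 15 groups checked, and chance alone marks about 1 group in 20.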

How the results depend on the processing

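No paired analysis was possible because the labels give the wells no replicate numbers that tie groups together. Counts of called chemokines that moved by more than 1.5 times were these. In DESeq2 the calls were 3 in place of 5 in NeuN- nuclei at 6 h and 1 in place of 2 at 24 h. In NeuN+ nuclei they were 1 in place of 3 at 6 h and 2 in place of 4 from 24 to 72 h. Some of these genes had no adjusted p in DESeq2 and so were not judged. They were Cxcl10 in NeuN- nuclei at 24 h, Cxcl9 in NeuN+ nuclei at 6 h, and Ccl2 and Cxcl9 in NeuN+ nuclei from 24 to 72 h. The filterByExpr filter, which left 1 or 2 chemokines to test, gave 2 in NeuN- nuclei at 6 h, 1 and 0 in NeuN+ nuclei at 6 and 24 h, 1 and 1 for NeuN- nuclei between 6 and 24 h and between 24 and 72 h, and 0 and 0 for NeuN+ nuclei. Setting the 6 h NeuN+ wells against every saline well gave 5. The same choice raised the permutation tests with an adjusted p below 0.05 from 4 to 27 of 80. With thinned NeuN+ counts the fraction contrast in saline gave 1. In microglia-like nuclei no chemokine was called with RLE factors, in DESeq2, without the nuclei richest in Cxcl9 or Cxcl10 and without nuclei with a Ccr2 UMI. In DESeq2 and without the Ccr2 nuclei hardly any gene of any kind was called there. Dropping each well in turn, the NeuN+ calls numbered 1 to 3 for 6 h, 2 to 4 for 24 h and 3 to 5 between 24 and 72 h, and the saline fraction contrast had 1 to 3. The estimates for Cxcl12, never called with IFN-γ, changed sign: in NeuN- nuclei at 48 h to 0.34 with all saline wells and between -0.58 and 0.12 without single wells, in NeuN+ nuclei at 6 h between -0.21 and 1.06, and at 72 h to -0.64 with all saline wells and between -0.09 and 0.25. That of Ccl12 between 6 and 24 h in NeuN- nuclei ran from -0.28 to 0.14. The other 387 counts stayed within 1.5 times of the main count, which allows single genes to gain or lose a call. Of the single-gene values, 1466 kept their direction and side of the threshold, and 34 lost and 22 gained a call. For the interaction the scaling turned the balance of higher and lower calls over all genes. At 24 h it was 127 and 188 with TMM, 182 and 135 with RLE and 192 and 130 in DESeq2. At 6 h it was 44 and 91, 75 and 76, and 78 and 76. Under each, 0 chemokines were called. In DESeq2 no chemokine tested at 24 h had an adjusted p, and at 6 h only Cxcl9 and Cxcl10 had one. The lack of a call there says nothing of the others. The terms that could not be estimated in the main fit are given above. Leaving out 1 mouse gave values with no test. The cause of these changes was not tested beyond the number of genes or wells left. Few counts per NeuN- well limit every chemokine there.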
